A study of Mus musculus with 9 samples.

Results

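The NRF2 oxidative stress response genes are 10 of the 23955 genes in the count table, taken by symbol as Nfe2l2, Keap1, Hmox1, Nqo1, Gclc, Gclm, Txnrd1, Srxn1, Slc7a11 and G6pdx, and all 10 were found. Their RNA was measured by RNA-seq in 9 organoid samples, that is, epithelial cultures grown from mouse gut, in 3 groups of 3. All 9 came from APCmin/+ mice, which carry a truncating mutation of the Wnt pathway brake Apc. The MIN group was grown from gut epithelium lying next to the tumors, the Adenoma group from adenomatous polyps, and the Sulindac group from adenomatous polyps whose organoids were given the non-steroidal anti-inflammatory drug (NSAID) sulindac. Every group received the same medium, with Noggin, EGF, bFGF, R-spondin1 and B27. The age of the mice, whether animals were pooled, the dose and duration of sulindac on the organoids and a vehicle for the untreated adenoma organoids were not given in the sources used here. The study describes the samples of each group as biological replicates.

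NRF2, the protein of Nfe2l2, is a transcription factor that is held at a low level because KEAP1 presents it to a ubiquitin ligase for degradation. Oxidants and electrophiles modify cysteines of KEAP1, NRF2 then builds up in the nucleus and, with a small MAF protein, binds antioxidant response elements near the genes of glutathione synthesis, thioredoxin recycling, quinone and heme breakdown and NADPH supply. Because NRF2 is controlled mainly as a protein, the RNA of Nfe2l2 is not a measure of its activity. In the gut epithelium these enzymes handle reactive compounds from food, bacteria and drugs.

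The upstream sequences of 4 of these genes are shown because they hold letters that NRF2 or its relatives can recognise and because the 4 genes differed between Sulindac and Adenoma. RefSeq start-site windows (GRCm38.p6, 250 bases before to 50 bases after a start) were found for 8 of the 10 genes, in 10 windows, with 3 start sites for Txnrd1. No window was found for Gclc and Hmox1, so the motif search does not cover them. Each line holds the 250 bases before the start, 5′ to 3′ in the direction of the gene, with capitals marking matches to TGACNNNGC, the core of the antioxidant response element, or to TGANTCA, the AP-1 letters that can overlap it. Both strands were searched, and the AP-1 letters read as their own reverse complement.
Srxn1, chr2:152105274-152105523, strand +: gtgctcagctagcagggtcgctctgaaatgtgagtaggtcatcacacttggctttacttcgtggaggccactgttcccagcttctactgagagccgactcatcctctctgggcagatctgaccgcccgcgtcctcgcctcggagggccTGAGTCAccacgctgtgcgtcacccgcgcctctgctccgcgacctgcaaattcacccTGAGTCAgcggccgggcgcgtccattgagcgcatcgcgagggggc
Gclm, chr3:122245307-122245556, strand +: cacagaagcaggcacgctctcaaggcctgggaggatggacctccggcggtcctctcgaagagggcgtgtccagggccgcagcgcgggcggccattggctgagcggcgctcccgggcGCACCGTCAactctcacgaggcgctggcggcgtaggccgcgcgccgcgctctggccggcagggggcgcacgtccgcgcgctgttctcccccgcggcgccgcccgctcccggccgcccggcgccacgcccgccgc
Txnrd1 start 2, chr10:82858956-82859205, strand +: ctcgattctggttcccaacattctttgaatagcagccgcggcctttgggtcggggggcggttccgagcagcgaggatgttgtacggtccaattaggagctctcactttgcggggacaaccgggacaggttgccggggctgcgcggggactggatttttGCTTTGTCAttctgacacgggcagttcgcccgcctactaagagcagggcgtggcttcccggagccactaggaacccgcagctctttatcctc
G6pdx, chrX:74428881-74429130, strand -: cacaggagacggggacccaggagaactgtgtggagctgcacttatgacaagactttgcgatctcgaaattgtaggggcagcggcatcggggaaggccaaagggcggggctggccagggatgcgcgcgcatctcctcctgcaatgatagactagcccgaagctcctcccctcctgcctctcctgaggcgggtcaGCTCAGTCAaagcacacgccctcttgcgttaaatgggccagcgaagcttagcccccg

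The core letters occurred in 5 of the 10 windows and in 5 of the 8 genes, against 12.4% of all 32851 windows and 3781 of all 27025 genes in the table. In Gclm they lay 134 to 126 bases before the start, in Txnrd1 92 to 84 bases before its start 2 and in G6pdx 57 to 49 bases before the start, each on the opposite strand. In Srxn1 they lay 29 to 37 bases after the start on the opposite strand (TGACCTAGC), and the AP-1 letters began 102 and 45 bases before it. Nfe2l2 held the core letters 240 to 232 bases before its start (TGACTCCGC). Unlike in the other windows, the 50 bases after this start occur in no GENCODE M21 transcript of the gene, so the start is less certain. The AP-1 letters occurred in 1 of the 10 windows, that of Srxn1, against 7.81% of all windows. Nqo1, Keap1 and Slc7a11 held neither. A match describes letters in a short window and does not show binding, and elements farther from the start were outside the search.

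**Figure D1:**
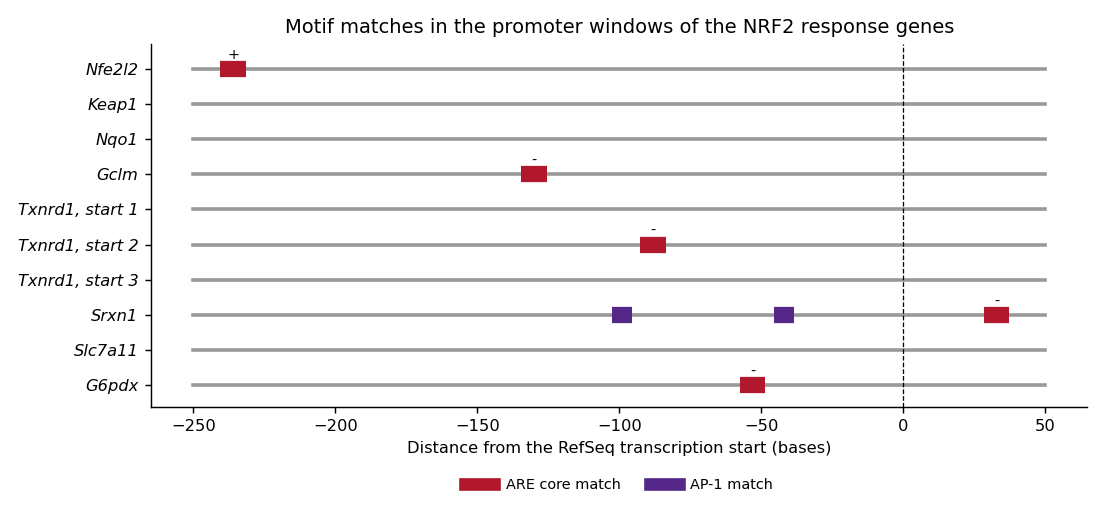
Positions of the antioxidant response element core (TGACNNNGC) and of the AP-1 letters (TGANTCA) in the 10 RefSeq start-site windows, with the distance from the start in bases on the x axis and 1 row per window. The core letters stand in 5 of the 10 windows, and the only window with AP-1 letters is that of Srxn1.

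Sequencing depth ranged from 30881206 to 48412477 counts per sample, and the lowest count of any of the 10 genes in any sample was 415 (Hmox1 in Adenoma replicate 2). Levels are given as CPM, counts scaled to a common library total, after TMM normalization over the 9 samples. The 10 genes together took 0.150% to 0.173% of all counts in MIN, 0.158% to 0.190% in Adenoma and 0.680% to 0.773% in Sulindac. The epithelial markers summed to 4636 to 6492 CPM in MIN, 2901 to 3726 in Adenoma and 4006 to 4668 in Sulindac. The leukocyte markers summed to 3.40 to 4.09 CPM in MIN, 0.391 to 0.730 in Adenoma and 0.145 to 0.367 in Sulindac. Nearly all of the MIN sum was Itgam (3.74 CPM on average), of whose 50-base stretches 66.3% occur in another gene, while Ptprc, the marker of all leukocytes, had 0 to 1 counts per MIN sample, 4 to 8 per Adenoma sample and 0 in Sulindac. The stromal and endothelial markers summed to 0.727 to 1.25, 1.97 to 2.37 and 0.826 to 1.08 CPM. Emr1, Col1a2, Col3a1 and Dcn, which mark macrophages and fibroblasts, were at 0 counts in all 9 samples. Other genes of the stromal and endothelial list were detected at a low level. Col1a1 had means of 0.376, 1.19 and 0.420 CPM in MIN, Adenoma and Sulindac, and Pdgfra 0.152, 0.866 and 0.539. Between Adenoma and MIN edgeR called Pdgfra higher (log2 fold change 2.49) and Pecam1 lower (-2.18). Markers of mature enterocytes summed to 2023 to 2398 CPM in MIN against 4.67 to 5.41 in Adenoma and 3.79 to 4.16 in Sulindac. The stem and secretory cell markers summed to 6201 to 8340, 244.6 to 384.6 and 111.1 to 206.2 CPM. In MIN the latter sum was mostly Lyz1 and Olfm4 (means of 4686 and 1220 CPM). Of its stem cell genes, Lgr5 had means of 226.6, 105.5 and 53.0 CPM in MIN, Adenoma and Sulindac. Ascl2, at 25.1, 64.8 and 37.8 CPM, went the other way and was higher in Adenoma than in MIN. The levels of these differentiation markers moved with every comparison against MIN, and their part in those results was not tested. Between Sulindac and Adenoma the sums of the epithelial, enterocyte, stem and secretory cell, leukocyte, and stromal and endothelial markers did not overlap either. The epithelial sum was higher and the others were lower in Sulindac. Within the epithelial list Epcam went the other way (means of 734.2 CPM in Adenoma and 555.2 in Sulindac, not called). Of the markers of these lists edgeR called Krt8 (log2 fold change 0.85) and Vil1 (0.72) higher and Sis (-1.87) and Col1a1 (-1.48) lower. Krt8, Vil1, Sis and Col1a1 were not called in 7, 5, 3 and 10 of the 14 alternatives. Their part in the results on sulindac was not tested.

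In each comparison only the samples of the groups compared were fitted with edgeR's quasi-likelihood test, and a gene was called at a Benjamini-Hochberg false discovery rate (FDR) of 1% over all genes tested. In adenoma organoids treated with sulindac, 8 of the 10 genes were higher than in untreated adenoma organoids and none was lower, where 8.32% of the 12962 genes tested were higher and 9.1% lower. All 8 were called higher and rose more than 2-fold, both of which held for 2.82% of the genes tested, and in all 8 every Sulindac sample lay above every Adenoma sample, a pattern that 22.9% of all genes showed, while none of the 10 lay below without overlap, as 26% of all genes did. The median log2 fold change of the 10 genes was 1.82, against -0.01 over all genes tested. Between Adenoma and MIN, 0 of the 10 were higher, where 18.5% of the 13744 genes tested were (1 at an unadjusted p under 0.05, Nfe2l2, and 0 by DESeq2), and 1 of the 10 was lower, where 20.1% were. In either direction 1 of 10 was called, where 38.7% of all genes were. Nfe2l2 alone had every Adenoma sample above every MIN sample, as 30.7% of all genes did, and Gclm and Srxn1 had every Adenoma sample below, as 32.2% did. The 2 comparisons share the Adenoma samples. Fewer cells with a high level and less RNA per cell cannot be told apart in such bulk samples.

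**Figure D2:**
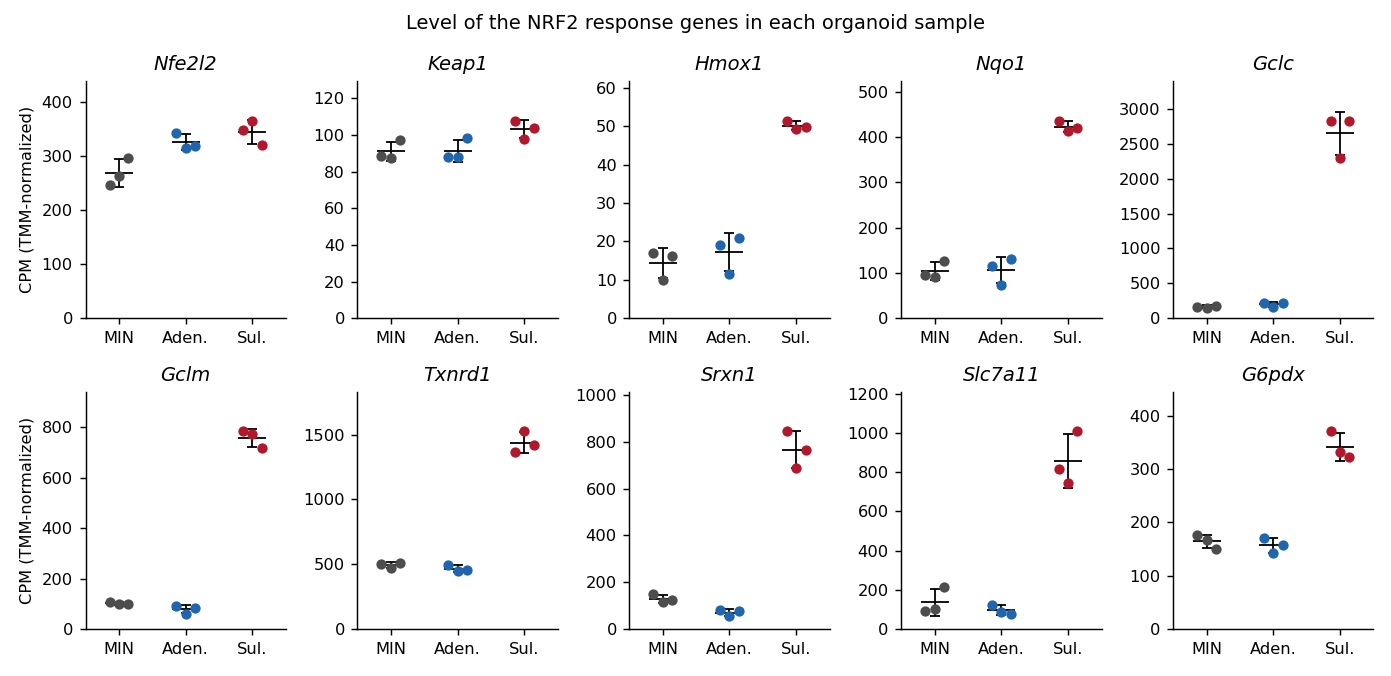
Levels of the 10 genes in CPM (linear axes from 0, 1 panel per gene), with a point for each of the 3 samples of MIN, Adenoma and Sulindac and a bar at the group mean with its SD. In 8 panels the Sulindac points stand clear above the rest, and for Nfe2l2 and Keap1 they overlap the Adenoma points.

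The regulators themselves moved little. Nfe2l2 was measured at 246.2, 263.1 and 295.9 CPM in MIN, at 343.2, 314.9 and 319.0 in Adenoma and at 347.3, 365.5 and 320.7 in Sulindac. The Sulindac and Adenoma ranges overlapped, and both lay above the MIN range. The Sulindac over Adenoma log2 fold change was 0.09 (SE 0.10, adjusted p = 0.518 in edgeR's quasi-likelihood test) and turned to -0.08, also not called, with library size as the only scaling. The values over MIN were 0.28 for Adenoma (SE 0.11, adjusted p = 0.0626) and 0.36 for Sulindac (SE 0.10, adjusted p = 0.0106), the latter just outside the threshold. Without MIN replicate 3 the Sulindac over MIN value was 0.43 (adjusted p = 0.00264) and passed it.

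Keap1, the adaptor that delivers NRF2 to the CUL3 ubiquitin ligase, stood at 88.4, 87.5 and 97.2 CPM in MIN, 87.9, 87.8 and 98.5 in Adenoma and 107.9, 97.9 and 103.9 in Sulindac. The lowest Sulindac sample lay just under the highest Adenoma sample. The Sulindac over Adenoma log2 fold change was 0.19 (SE 0.09, adjusted p = 0.161), and those over MIN were 0.01 for Adenoma (adjusted p = 0.956) and 0.18 for Sulindac (adjusted p = 0.0816), so Keap1 was called in none of the 3 comparisons.

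Gclc had the largest fold change of the 10 genes. It encodes the catalytic subunit of glutamate-cysteine ligase, the first and rate-limiting enzyme of glutathione synthesis. Its level was 166.8, 144.5 and 180.9 CPM in MIN, 213.1, 158.7 and 224.1 in Adenoma and 2831, 2298 and 2834 in Sulindac. The lowest Sulindac sample was thus far above the highest untreated sample. The fold change of Sulindac over Adenoma was 13.5 (log2 3.75, SE 0.18, adjusted p = 3.99e-05), which ranked 23 among the 12962 genes tested. Adenoma over MIN gave a log2 fold change of 0.28 (SE 0.15, adjusted p = 0.159), with overlapping ranges.

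Gclm encodes the modifier subunit of the same ligase, which makes the catalytic subunit more efficient. It was measured at 108.1, 100.4 and 97.0 CPM in MIN, at 91.6, 61.1 and 81.5 in Adenoma and at 784.4, 772.5 and 718.6 in Sulindac. Sulindac was 9.77-fold above Adenoma (log2 3.29, SE 0.16, adjusted p = 3.99e-05, rank 30). All Adenoma samples lay below all MIN samples, but the log2 fold change of -0.38 (SE 0.15, adjusted p = 0.0616) did not pass the threshold. Per kilobase of transcript, the level of Gclc was 2.35 to 3.05 times that of Gclm in the MIN samples, 3.80 to 4.49 times in Adenoma and 4.86 to 6.44 times in Sulindac, so that the ranges of this ratio did not overlap between groups.

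Slc7a11 encodes the cystine and glutamate exchanger xCT, which brings in the cystine for glutathione. Of the 10 genes it varied most among the MIN samples, with 92.1, 101.8 and 213.8 CPM in MIN and 122.5, 87.2 and 73.8 in Adenoma, against 818.4, 743.3 and 1008 in Sulindac. MIN replicate 3 stood well above the other MIN samples, yet all untreated samples were below every Sulindac sample. Sulindac was 9.11-fold above Adenoma (log2 3.19, SE 0.22, adjusted p = 9.15e-05, rank 32). The Adenoma over MIN log2 fold change was -0.52 (SE 0.32, adjusted p = 0.208), and it was -0.04 without MIN replicate 3, not called either way.

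In the thioredoxin branch, Srxn1 was the gene that differed in every comparison. It encodes sulfiredoxin, which restores over-oxidized peroxiredoxins. Its level was 147.5, 117.3 and 122.7 CPM in MIN, 79.6, 54.1 and 77.0 in Adenoma and 846.2, 690.3 and 766.0 in Sulindac, so the 3 groups did not overlap. Srxn1 fell from MIN to Adenoma by 0.88 on the log2 scale (SE 0.17, adjusted p = 0.00211), the only one of the 10 genes called there. It was 11.0-fold higher in Sulindac than in Adenoma (log2 3.46, SE 0.18, adjusted p = 3.99e-05, rank 25) and 5.93-fold higher in Sulindac than in MIN (log2 2.57, SE 0.13, adjusted p = 7.13e-07). The start-site window of this gene was also the only one with both searched motifs.

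Txnrd1, the cytosolic thioredoxin reductase, uses NADPH to keep thioredoxin reduced. It was measured at 502.2, 467.4 and 509.7 CPM in MIN, 494.3, 448.0 and 453.2 in Adenoma and 1369, 1527 and 1421 in Sulindac. MIN and Adenoma overlapped (log2 fold change -0.08, SE 0.11, adjusted p = 0.558), and Sulindac stood clear of both. The Sulindac over Adenoma fold change was 3.11 (log2 1.64, SE 0.11, adjusted p = 8.64e-05, rank 173).

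The remaining 3 genes, of quinone, heme and NADPH metabolism, also rose with sulindac, by factors below those of Gclc, Gclm and Slc7a11. Nqo1, a quinone reductase often used as a readout of NRF2, had 94.6, 91.6 and 126.1 CPM in MIN, 116.0, 73.7 and 130.3 in Adenoma and 436.1, 413.8 and 418.9 in Sulindac. The untreated groups overlapped, while the Sulindac samples were close to each other, with an SD of 2.76% of the mean against 27.6% in Adenoma. Sulindac was 3.99-fold above Adenoma (log2 2.00, SE 0.19, adjusted p = 0.000291, rank 115).

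Hmox1, heme oxygenase 1, opens the heme ring and frees iron and biliverdin, and it had the lowest CPM of the 10 genes in every group. It stood at 16.9, 9.96 and 16.3 CPM in MIN, 19.1, 11.6 and 20.8 in Adenoma and 51.4, 49.2 and 49.7 in Sulindac. Replicate 2 was lowest in each group, and the Sulindac samples were again the closest to each other. The Sulindac over Adenoma fold change was 2.94 (log2 1.55, SE 0.19, adjusted p = 0.00087, rank 198), and Adenoma over MIN gave a log2 value of 0.26 (SE 0.27, adjusted p = 0.443).

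G6pdx encodes glucose-6-phosphate dehydrogenase, the entry enzyme of the pentose phosphate pathway and a main source of NADPH. Its level was 175.8, 166.2 and 150.9 CPM in MIN, 171.7, 141.8 and 156.9 in Adenoma and 371.3, 332.2 and 322.2 in Sulindac. Sulindac was 2.19-fold above Adenoma (log2 1.13, SE 0.11, adjusted p = 0.000339, rank 386), the smallest of the 8 calls, and Adenoma did not pass against MIN (log2 -0.06, SE 0.11, adjusted p = 0.662). Of its 50-base transcript stretches 16.9% also occur in other genes, 10.6% in the overlapping gene Ikbkg, so some of its reads may belong elsewhere. This share was 7.78% for Keap1, 4.58% for Gclm and 1.47% for Slc7a11, and 0% for the other 6 genes.

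Against MIN, the Sulindac organoids had 8 higher genes and none lower, where 23% of the 13551 genes tested were higher and 26.8% lower. All 10 genes, Nfe2l2 and Keap1 included, had every Sulindac sample above every MIN sample, where 33.5% of all genes did, and none lay below without overlap, where 36% did. The log2 fold changes of the called genes were 4.01 for Gclc (SE 0.14), 2.89 for Gclm (SE 0.09), 2.66 for Slc7a11 (SE 0.32), 2.57 for Srxn1, 2.02 for Nqo1 (SE 0.13), 1.80 for Hmox1 (SE 0.18), 1.54 for Txnrd1 (SE 0.09) and 1.05 for G6pdx (SE 0.10). Their adjusted p-values in edgeR's quasi-likelihood test ranged from 6.49e-08 for Gclm to 0.000159 for Slc7a11. This comparison shares its samples with the other comparisons, and 49.7% of all genes differed in it in either direction, more than the 17.4% between Sulindac and Adenoma.

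**Figure D3:**
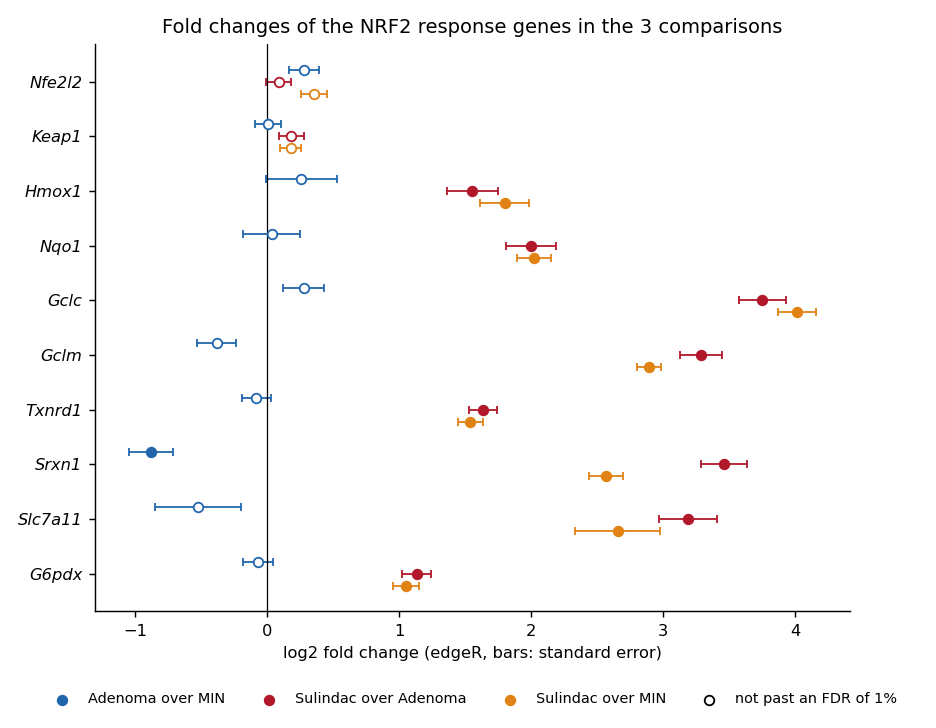
Log2 fold changes of the 10 genes from edgeR in the 3 comparisons, with bars for the SE, filled points for calls at an FDR of 1% and open points for genes not called. The Adenoma over MIN points lie between -0.88 and 0.28, and the Sulindac points of the 8 called genes lie between 1.05 and 4.01.

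Levels of different genes were compared per kilobase of the principal GENCODE M21 transcript (CPM per kb). In MIN and in Adenoma, Txnrd1 was the most abundant of the 10, at 139.7 ± 6.38 and 131.7 ± 7.18 CPM per kb (SD, n = 3), and Nfe2l2 followed at 108.4 ± 10.2 and 131.6 ± 6.19, which in Adenoma did not differ from Txnrd1 beyond the spread. Nqo1 was next with 67.0 ± 12.3 and 68.7 ± 19.0, its spread reaching that of G6pdx at 61.9 ± 4.74 and 59.1 ± 5.63. Gclc held rank 5 in both groups, at 47.9 ± 5.37 and 58.0 ± 10.2. In Sulindac the order was led by Gclc at 775.4 ± 90.1 CPM per kb, ahead of Txnrd1 at 407.6 ± 22.7, Srxn1 at 272.9 ± 27.7 and Nqo1 at 272.3 ± 7.52, the last pair within their spread. Nfe2l2 at 139.2 ± 9.11, Gclm at 135.7 ± 6.27 and G6pdx at 128.9 ± 9.78 formed an overlapping middle, followed by Slc7a11 at 92.9 ± 14.8, Hmox1 at 31.9 ± 0.744 and Keap1 at 28.6 ± 1.39. Keap1 thus went from rank 7 in MIN and 6 in Adenoma to rank 10.

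Individual samples also differed across the 10 genes. Adenoma replicate 2 was the lowest of its group for 9 of them, the exception being Slc7a11, and MIN replicate 2 and Sulindac replicate 2 were each lowest for 6. The genes of 1 sample are not independent, so this order describes those samples.

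Among 13891 other genes, the one with the most similar pattern over the 9 samples was sought by the root mean square difference of centred log2(CPM + 0.5) values. For Nfe2l2 it was Tes, at a difference of 0.03, and for Keap1 Gtpbp8, at 0.05, patterns that hardly vary. For the strongly raised genes no gene was as near. The nearest gene to Gclm over the whole table was Srxn1 (0.22), and Gclm was likewise the nearest of all genes to Srxn1 and to Slc7a11 (0.41). Outside the lists the nearest were Fgf1 for Gclm (0.41) and Slc7a11 (0.42), Bace2 for Srxn1 (0.49) and Pgbd5 for Gclc (0.36), whose second nearest gene was Gclm (0.48). Also outside the lists, Tsku was nearest to Nqo1 (0.15), Slc22a23 to Txnrd1 (0.15), AA986860 to Hmox1 (0.17) and Slc35f6 to G6pdx (0.09). With 3 groups, such likeness rests largely on the group means.

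Other genes of the same pathways were examined in lists that name them by function. Their counts stand beside all-gene shares of 8.32% higher and 9.1% lower in Sulindac over Adenoma, 18.5% and 20.1% in Adenoma over MIN, and 23% and 26.8% in Sulindac over MIN. Of 17 further genes of glutathione synthesis and use, 15 were higher in Sulindac than in Adenoma and none was lower, with a median log2 fold change of 1.87. Gstm3, a glutathione S-transferase, went from 28.5 ± 8.65 CPM in Adenoma to 434.8 ± 56.2 in Sulindac (SD, n = 3, log2 fold change 3.94), beside 419.6 ± 80.5 CPM in MIN, with 28.8% of its 50-base stretches shared with other genes. Gsta1, another transferase, had the largest value of the list (6.23), but 90.5% of its stretches occur in other genes, so its level is uncertain. The export pumps for glutathione conjugates Abcc2 and Abcc3 rose by 2.92 and 2.38. Abcc2 reached 22.4 ± 1.84 CPM in Sulindac from 2.98 ± 0.586 in Adenoma, still far under the 300.4 ± 47.6 CPM of MIN. In Adenoma over MIN, 3 of the 17 were higher (17.6%, near the 18.5% of all genes) and 7 lower, where 20.1% of all genes were lower. In Sulindac over MIN 9 were higher and 2 lower, where 23% and 26.8% of all genes were. The 3 higher genes fell to 0 without MIN replicate 1 and to 1 without MIN replicate 2.

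Of 9 genes of NADPH supply beside G6pdx, 5 were higher in Sulindac than in Adenoma and none was lower (median log2 fold change 0.91). Pgd, the next NADPH-producing enzyme of the pentose phosphate pathway, rose from 195.6 ± 64.2 to 1266 ± 218 CPM (SD, n = 3, log2 2.70). Taldo1 (1.41) and Tkt (1.33) of the same pathway and the malic enzyme Me1 (1.21) also rose, while Rpia, an isomerase of the pathway, was at 0.24 and was not called (adjusted p = 0.147 in edgeR's test). Of the 50-base stretches of Me1, 28.3% also occur in other genes, 21.1% in Gm7049. In Adenoma over MIN, 1 of the 9 was higher and 4 were lower, a count of 4 that became 1 without MIN replicate 2 or Adenoma replicate 2 and 2 without MIN replicate 1. In Sulindac over MIN, 5 were higher and 1 was lower, and 2 were lower without Sulindac replicate 2.

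In heme and iron handling, 5 of 8 genes were higher in Sulindac than in Adenoma and none was lower (median 0.95). Blvrb, a biliverdin reductase, rose from 74.6 ± 29.4 to 248.2 ± 4.99 CPM (log2 1.75), and the iron exporter Slc40a1 from 50.5 ± 7.28 to 114.0 ± 7.87 CPM (log2 1.18). The ferritin light chain Ftl1 rose by 1.47, with 58.4% of its stretches shared with other genes, mostly a pseudogene. This was the list that was also raised in untreated adenoma organoids, with 5 of 8 genes higher than in MIN, none lower and a median of 1.00, and 5 of 8 were higher in Sulindac than in MIN. Slc48a1, a heme transporter, stood at 32.7 ± 1.36 CPM in MIN, 113.1 ± 16.4 in Adenoma and 206.8 ± 8.95 in Sulindac. Hmox1 itself was not called between Adenoma and MIN.

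Of 11 other detoxification genes linked to NRF2, 9 were higher in Sulindac than in Adenoma and none was lower (median 1.88). Aldh3a1, an aldehyde dehydrogenase, rose from 3.31 ± 1.26 to 110.7 ± 17.6 CPM (log2 5.07) and had at most 1 count in any MIN sample. The carbonyl reductase Cbr1 rose by 2.43 to 481.3 ± 51.1 CPM, against 318.4 ± 50.5 in MIN. Ces1g, a carboxylesterase, rose by 4.81 from 2 to 7 counts per Adenoma sample, and Ugt1a6a, a glucuronosyltransferase that shares 52.1% of its stretches with its neighbours, by 3.61. Adenoma over MIN gave 2 higher and 7 lower, and Sulindac over MIN 7 higher and 2 lower.

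The thioredoxin system beyond Txnrd1 and Srxn1 moved less, with 3 of 9 genes higher in Sulindac than in Adenoma, none lower and a median of 0.38. The glutaredoxin Glrx rose from 95.3 ± 11.4 to 185.6 ± 24.0 CPM (log2 0.97), and the peroxiredoxins Prdx1 (0.85) and Prdx6 (0.65) were called as well. Thioredoxin itself, Txn1, was not called (0.38, adjusted p = 0.0991 in edgeR's test). The 3 calls became 1 without Sulindac replicate 3 and 5 without Adenoma replicate 3. In Adenoma over MIN 0 were higher and 4 lower, where 18.5% and 20.1% of all genes were. In Sulindac over MIN 2 were higher and 3 lower, near the 23% and 26.8% of all genes. The 4 became 2 without MIN replicate 2, MIN replicate 3, Adenoma replicate 1 or Adenoma replicate 2, and the 3 became 1 without MIN replicate 2, Sulindac replicate 1 or Sulindac replicate 3.

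Among 12 partners and regulators of NRF2, 5 were higher in Sulindac than in Adenoma and none was lower (median 0.53). Bach1, a repressor that competes with NRF2 for the same elements, was at 124.9 ± 22.4 CPM in MIN, 56.1 ± 10.8 in Adenoma and 118.2 ± 7.61 in Sulindac, and rose by 1.08 with sulindac. Sqstm1, the autophagy receptor p62 that binds KEAP1, rose by 0.94 and the related factor Nfe2l1 by 0.74. The 5 calls became 3 without Adenoma replicate 1, Adenoma replicate 2, Sulindac replicate 1 or Sulindac replicate 3. With Adenoma replicate 1 left out, 1 gene of the list was lower, and 1 was lower in the fit blocked on replicate number. In Adenoma over MIN 4 were higher and 2 lower, and in Sulindac over MIN 7 and 1. Of these, Nfe2l3 went from 0.945 ± 0.0803 CPM in MIN to 22.7 ± 5.94 in Adenoma (log2 4.59).

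Lists outside the core NRF2 set were set beside these. Of 11 other antioxidant enzymes, 9 had enough counts to be tested in Sulindac over Adenoma, and 2 were higher and none lower, with a median of 0.27. These 2 were catalase, Cat, which rose from 83.3 ± 11.9 to 500.1 ± 39.0 CPM (log2 2.59), and the cytosolic superoxide dismutase Sod1 (1.15). Without Adenoma replicate 3 the count was 6, and without Adenoma replicate 1, 1 gene was lower. Of 10 genes of the ATF4 amino acid and heat shock responses, 8 were tested and 5 were higher (median 1.25), among them the ATF4 targets Trib3 (2.45) and Ddit3 (1.56), and with any 1 of the Sulindac samples left out 3 were higher. Slc7a11 is itself known as a target of ATF4 as well as of NRF2, and the parts of the factors in its level were not tested. Atf4 stood at 468.1 ± 126 CPM in MIN and 430.7 ± 54.5 in Sulindac, with a mean of 198.4 in Adenoma (log2 fold change of Sulindac over Adenoma 1.12). Its Sulindac level was not called different from MIN (log2 -0.12, adjusted p = 0.578 in edgeR's test). Against MIN, Adenoma had 1 antioxidant enzyme higher and 3 lower and 0 of the ATF4 and heat shock genes higher and 6 lower. Sulindac had 5 and 2, and 1 and 2, respectively, with 4 ATF4 and heat shock genes higher without MIN replicate 3.

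**Figure D4:**
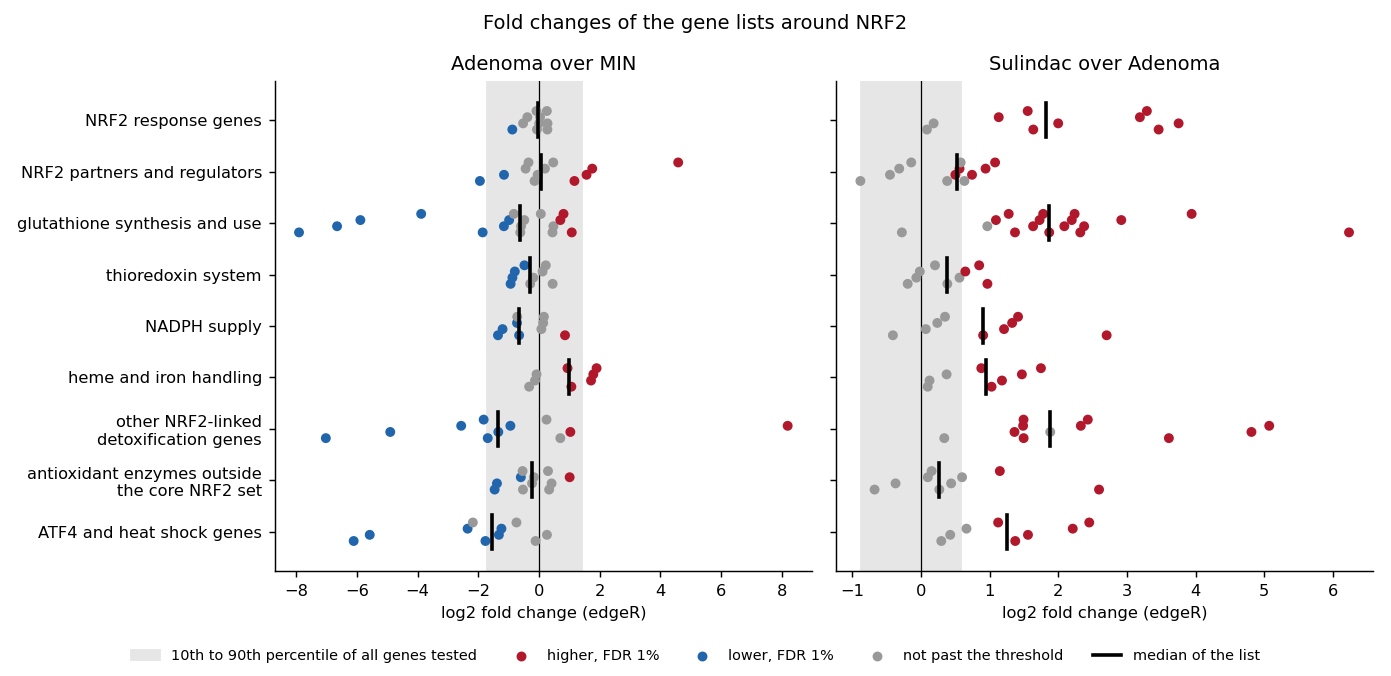
Log2 fold changes of every tested gene of the 10-gene set and of the 8 other lists in Adenoma over MIN (left) and Sulindac over Adenoma (right), 1 point per gene, red where higher and blue where lower at an FDR of 1%, grey where not called, with a bar at each list's median and shading from the 10th to the 90th percentile of all genes tested. In Sulindac over Adenoma the medians reach 1.82 for the 10 genes, 1.87 for glutathione genes and 1.88 for other detoxification genes. The fitted Adenoma over MIN value of Aldh3a1 rests on at most 1 count per MIN sample and is no measure of size.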

How the data were processed

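RNA was sequenced from 9 mouse organoid samples, 3 each of MIN, Adenoma and Sulindac, grouped by the sample labels. The authors deposited 1 table of raw counts per gene symbol, without normalization, made per the labels with RSEM and Bowtie2 2.2.4 on mm9. The gene annotation and the strand setting were not given in the sources used here. Of 3 columns of counts named MIN1, the third was the sum of the others in all 23955 rows and was used as MIN replicate 1. What the summed columns are was not given in the sources used here. The chi-square per gene was 1.19 between them and 17.7 to 77.8 between replicates. The largest values were of pairs with MIN replicate 3 (65.4 and 72.9) or Adenoma replicate 3 (70.4 and 77.8). In 27 rows the symbol had become a date, and these were kept unnamed. Counts were filtered with filterByExpr, normalized by TMM and tested with edgeR 4.0.16 in R 4.3.3 (glmQLFit, robust, and glmQLFTest, two-sided), fitting only the groups compared, with Benjamini-Hochberg adjustment over all genes tested and an FDR of 1%. The SE was taken as the absolute log2 fold change over the root of the F statistic. The script was tested on simulated counts.

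The members and the gene lists were chosen with earlier results of these data known. All 10 members were named, and of each other list up to 4 called genes with the largest change in Sulindac over Adenoma. For the comparisons against MIN only some of the genes with the largest change were named. Left out above were, among others, Ggt1, Cbr3 and Hspa1b, called lower than MIN in Adenoma and in Sulindac. Ephx1 and Osgin1, called higher in Sulindac than in MIN, were left out as well. Other genes, among them Rpia, Txn1, Atf4, Slc48a1 and the members of marker lists, were named after their values were seen. Alternatives were DESeq2 1.42.0 (without a count filter), an FDR of 5%, RLE size factors, scaling by library size alone, testing without a count filter or with a minimum of 10 counts per sample, fitting all 9 samples together, blocking on the replicate number and leaving out each sample. MIN and Adenoma samples with the same number deviated together, though weakly (r of 0.125, 0.114 and 0.192 across genes). The paper describes normal tissue adjacent to the adenomas as the source of the MIN organoids. No label says what the replicate numbers share, so whether they pair the samples is not known. Promoter windows are RefSeq's (GRCm38.p6), a build other than the counts'. Transcript lengths and 50-base sharing are from GENCODE M21.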

Additional observations from a re-analysis of the deposited data

How the results depend on the processing

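The calls of the 10 genes held under all 14 alternatives in Adenoma over MIN and in Sulindac over Adenoma, 140 of 140 values each. In Sulindac over MIN 135 of 140 held and 5 passed the threshold newly, all of Nfe2l2: with library size alone (adjusted p = 0.00898), without a count filter (0.00986), with DESeq2 (0.00354), without MIN replicate 3 (0.00264) and at an FDR of 5%. The log2 fold change of Sulindac over Adenoma ranged from 3.59 to 3.86 for Gclc and from 0.97 to 1.21 for G6pdx. Counts over all genes moved more. The 1078 genes higher in Sulindac than in Adenoma became 603 with library size alone, 1766 with DESeq2, 2034 at an FDR of 5% and 423 to 1403 without single samples (423 without Sulindac replicate 3, 489 without Sulindac replicate 1, 608 without Sulindac replicate 2 and 576 without Adenoma replicate 2). The 1179 lower genes became 1983 with library size alone, 2374 at an FDR of 5% and 386 to 1488 without single samples (386, 492, 631 and 622 in the same order). A wider threshold raises such counts by construction. Leaving out Adenoma replicate 3 raised both counts, to 1403 and 1488, while leaving out any other sample lowered them. DESeq2 was run without the count filter, on 17788 genes in Sulindac over Adenoma, so the tool and the genes tested changed together. For the omitted samples, for scaling and for DESeq2 the cause was not tested. Library size alone shifted the all-gene median (log2) from -0.01 to -0.18 in Sulindac over Adenoma, with 23.3% in place of 47.8% of calls higher, and from -0.01 to 0.12 in Adenoma over MIN.

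Where edgeR called no gene of a list in Sulindac over Adenoma as lower, an unadjusted p under 0.05 and DESeq2 gave 0 and 0 for the 10 genes and the lists of glutathione, thioredoxin, heme and iron, other detoxification and ATF4 and heat shock genes. They gave 2 and 2 for NRF2 partners, 1 and 0 for NADPH supply and 2 and 1 for other antioxidant enzymes. In Adenoma over MIN they gave 0 and 0 higher for the thioredoxin system and 1 and 0 for ATF4 and heat shock genes, and 0 and 0 lower for heme and iron handling. For the 10 genes and for heme and iron handling they gave 0 and 0 lower in Sulindac over MIN.

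In the fits with the replicate block, the counts of members called were again 0 higher and 1 lower in Adenoma over MIN, 8 and 0 in Sulindac over Adenoma and 8 and 0 in Sulindac over MIN. The counts over all genes were 2531 and 2733, 872 and 1061, and 3280 and 3791. In Sulindac over Adenoma and Sulindac over MIN the same-number r values were of mixed sign (0.260, 0.213 and -0.08, and -0.03, 0.404 and 0.258). With 3 samples per group, such values do not settle whether the numbers pair the samples.

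Some calls of other genes in Sulindac over Adenoma did not pass the threshold in every alternative. Prdx1 was not called without Sulindac replicate 3 (log2 fold change 0.85, adjusted p = 0.0115), and Prdx6 not without Sulindac replicate 2 (0.61, adjusted p = 0.0113) or 3 (0.66, adjusted p = 0.0148). Asns was not called with any 1 Sulindac sample left out (log2 1.31 to 1.48). Mafk, Tfrc and Chac1 were not called in 6, 8 and 7 of the 14 alternatives, of which 5, 4 and 4 left out a sample. Their largest adjusted p in edgeR's test was 0.0314, 0.0392 and 0.0658, the last without a count filter. Their log2 fold changes ranged from 0.40 to 0.63, from 0.86 to 1.30 and from 1.77 to 2.67. The lowest count in any sample was 415 for the 10 genes and 143 for Chac1.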
